A study of Mus musculus with 16 samples.

Results

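The 10 genes described here, Pparg, Cebpa, Lpl, Cd36, Fabp4, Slc2a4, Dgat1, Dgat2, Cidec and Plin4, mark the identity of mature adipocytes and their handling of stored fat. They were taken by gene name from a table of 54532 genes, and each name matched 1 row. The table holds RNA sequencing of inguinal white adipose tissue (iWAT), in 16 libraries of male mice that entered the study at 8 to 10 weeks of age. All the mice ate chow with 200 mg/kg doxycycline for 5 days and all carried Apn-rtTA, a doxycycline-dependent activator driven by the adiponectin promoter, which is active in adipocytes. Has2_TG mice (Apn-Has2, n = 4) also carried TRE-Has2, which makes the hyaluronan synthase HAS2. PH20_TG mice (Apn-PH20, n = 4) carried TRE-PH20, which makes the hyaluronidase PH20, the product of Spam1. Has2_WT and PH20_WT (n = 4 each) were the littermates of each line with Apn-rtTA alone, so no group was free of the activator or of doxycycline. Values are FPKM, fragments scaled to gene length and library size, and whole tissue was sequenced. Fewer adipocytes and less RNA per adipocyte therefore cannot be told apart in any value below.

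Adipocytes are formed from progenitors when the nuclear receptor PPARγ and the leucine zipper factor C/EBPα switch each other on and together turn on the genes of fat storage. Fatty acids are freed from lipoproteins by lipoprotein lipase, taken up with the help of CD36 and carried inside the cell by FABP4, while GLUT4 brings in glucose in response to insulin. The 2 DGAT enzymes add the last fatty acid of a triglyceride, and proteins of the PLIN and CIDE families coat lipid droplets and let them grow.

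Start sites of 5 of the 10 genes (Pparg, Cebpa, Cd36, Cidec and Plin4) were held in a RefSeq promoter table for GRCm38.p6, with 8 promoters of 300 bases, 250 before and 50 after the start. Fabp4, Lpl, Slc2a4, Dgat1 and Dgat2 had no entry. The 8 promoters were searched on both strands for TTGCNNAA, a C/EBP binding motif, for the direct repeat bound by PPAR with RXR (2 copies of AGGNCA with 1 base between them), and for the TATA box TATAAA, with overlaps allowed. The 2 promoters with a C/EBP match are shown, and that of Cebpa because it encodes a factor that binds the motif. Capitals mark the matches.
Pparg, start of the 505-residue form, chr6:115421816-115422115, plus strand: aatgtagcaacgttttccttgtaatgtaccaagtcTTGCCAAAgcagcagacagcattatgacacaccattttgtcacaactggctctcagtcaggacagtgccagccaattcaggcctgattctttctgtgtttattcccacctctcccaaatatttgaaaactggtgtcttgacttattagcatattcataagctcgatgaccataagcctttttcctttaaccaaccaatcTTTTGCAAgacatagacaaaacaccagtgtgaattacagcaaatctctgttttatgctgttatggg
Cidec, start of the 249-residue form, chr6:113434715-113435014, minus strand: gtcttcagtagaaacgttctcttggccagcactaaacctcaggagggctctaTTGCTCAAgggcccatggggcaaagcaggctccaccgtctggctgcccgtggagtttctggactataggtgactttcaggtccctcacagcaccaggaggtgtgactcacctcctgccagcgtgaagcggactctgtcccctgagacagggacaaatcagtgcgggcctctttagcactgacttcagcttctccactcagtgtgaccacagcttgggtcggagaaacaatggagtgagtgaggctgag
Cebpa, chr7:35119043-35119342, plus strand: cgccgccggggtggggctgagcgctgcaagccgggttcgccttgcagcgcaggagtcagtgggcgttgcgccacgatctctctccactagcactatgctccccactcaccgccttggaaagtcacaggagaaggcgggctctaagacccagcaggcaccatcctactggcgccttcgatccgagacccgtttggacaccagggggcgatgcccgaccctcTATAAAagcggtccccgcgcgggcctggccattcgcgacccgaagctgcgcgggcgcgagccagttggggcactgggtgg
The Pparg promoter shown held 2 C/EBP matches, whose first bases were at -215 and -16 from the start site. The other 2 Pparg promoters held none. In 1 of them, of the 96-residue form, the letters TATAAA matched at -29 only on the strand opposite to transcription. Other forms of a TATA box were not searched. The Cidec promoter held 1, at -198, and its other promoter, of the 239-residue form, held none. The Cebpa promoter held a TATA box at -30, in the direction of transcription, and no C/EBP match. The direct repeat was found in none of the 8. Over 32851 mouse promoters of this length, 10.8% held the C/EBP motif, 0.3805% the direct repeat and 13.62% the TATA box. These matches are descriptions of letters in a window and carry no measurement of binding.

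Each library held 14421692 to 26751729 reads on genes, and the fewest reads on any of the 10 genes in any library was 1716, so counting error was small beside the spread between libraries. The 10 genes took 2.16% to 4.11% of the reads. Defining adipocyte genes (Adipoq, Plin1, Lipe, Pnpla2, Adig, Acsl1 and Cfd) were above 0 in every library. Has2 had a mean of 2.59 ± 0.631 FPKM in Has2_TG and 0.585 ± 0.176 in Has2_WT (SD, n = 4), and the 2 groups did not overlap. Spam1 had 0 reads in the 12 libraries of the other groups and 6, 12 and 5 reads in PH20_TG2, PH20_TG3 and PH20_TG4. The library labelled PH20_TG1 had 0 reads of Spam1, against its label, and its Has2 level was 3.32 FPKM. PH20_TG4 also had Has2 at 3.26 FPKM, while PH20_TG2 and PH20_TG3 had 0.380 and 0.0990. 4 control libraries, Has2_WT1, Has2_WT2, PH20_WT1 and PH20_WT3, stood apart by B cell, T cell and lymph node genes. The mean log2 level of 9 B cell markers was 3.02 to 4.82 in those 4 and -2.51 to -0.85 in the other 12, whereas no transgenic library was among the 4. The counts of the 10 genes called in each comparison are given with and without these libraries, while counts of ratios, of groups without overlap and of other gene lists are given with all libraries.

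**Figure D1:**
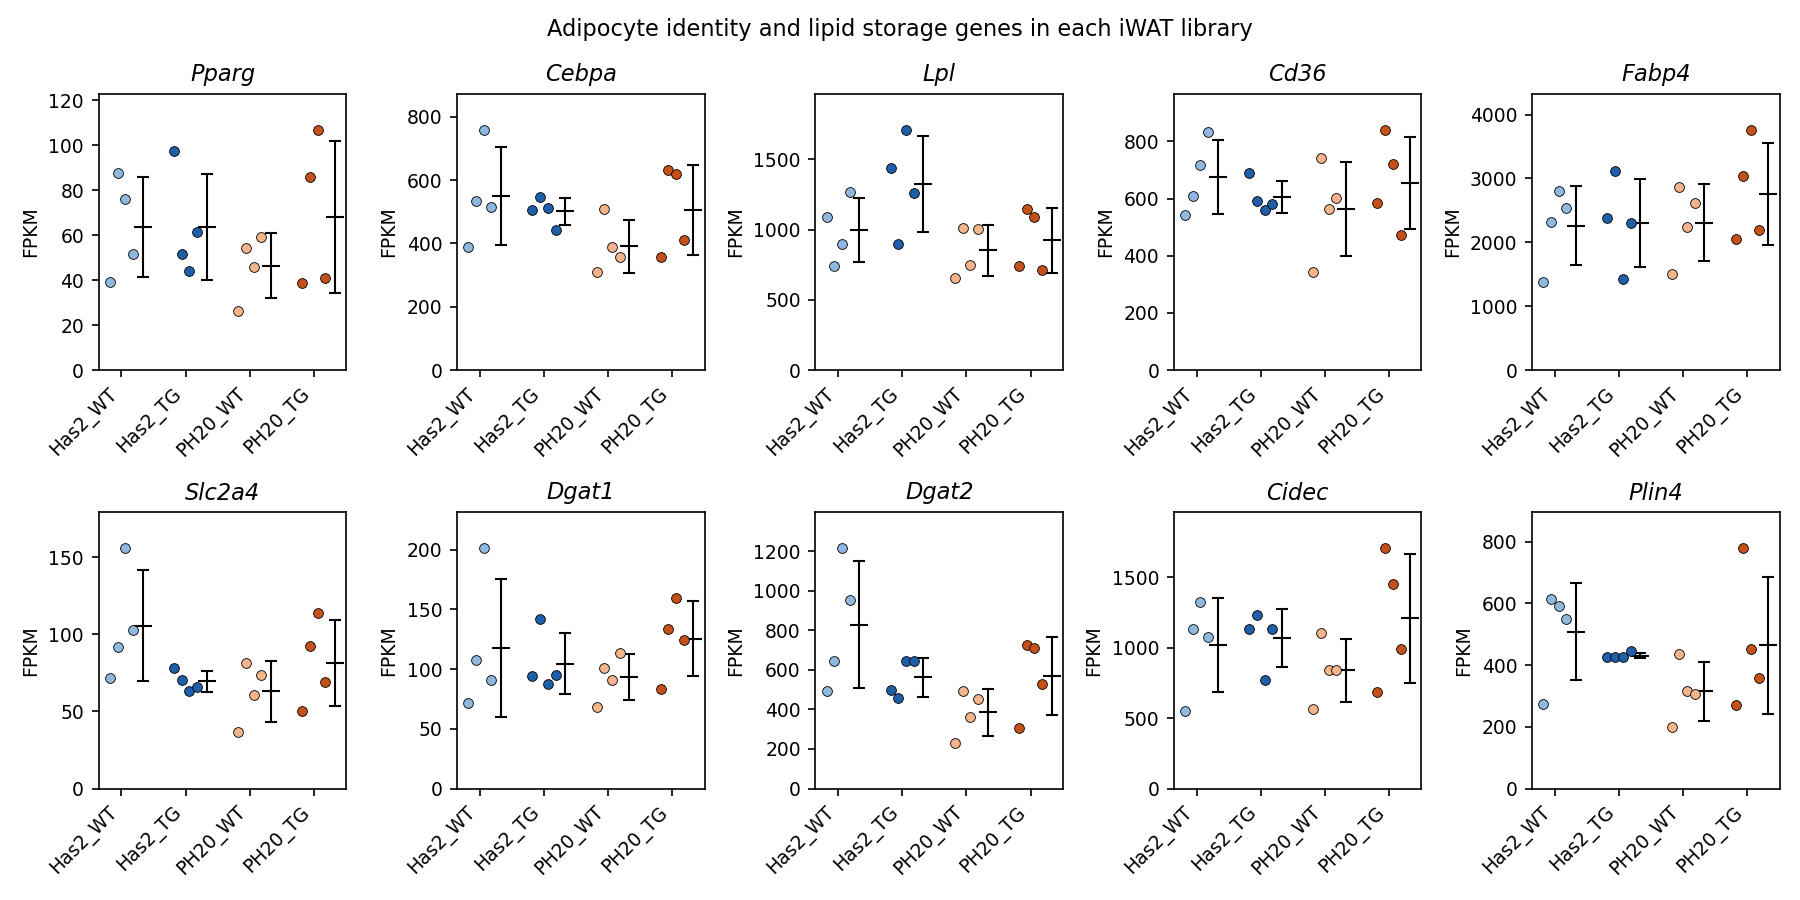
FPKM (linear axes from 0) of the 10 genes in each of 16 iWAT libraries, in 4 groups of 4. Points are libraries in replicate order from left to right, and the black bar with whiskers is the group mean ± SD. The groups overlapped for every gene. Fabp4 was the highest gene at a mean of 2409 FPKM and Pparg the lowest at 60.5 FPKM.

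Levels per length differed widely among the 10 genes. Fabp4 had a mean of 2409 FPKM over the 16 libraries, followed by Cidec at 1034 and Lpl at 1025. Cd36 (625), Dgat2 (585), Cebpa (486) and Plin4 (429.8) formed a middle range of mean FPKM, and Dgat1 (110.2), Slc2a4 (79.9) and Pparg (60.5) were the lowest. These levels depend on the length used. The table divided by the union of all annotated exons, which for all 10 genes equalled the union in GENCODE release M21, and for Fabp4 that union (4489 bases), which takes in a transcript with a retained intron, was 5.01 times the principal transcript (896 bases). Per length of the principal transcript, a choice made after seeing the data, the mean was 12069 FPKM for Fabp4 and 2611 for Lpl, which moved ahead of Cidec at 1116, and Dgat2 at 798 moved ahead of Cd36 at 660. The other 5 genes kept their places. Comparisons of one gene between libraries are not touched by its length.

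**Figure D2:**
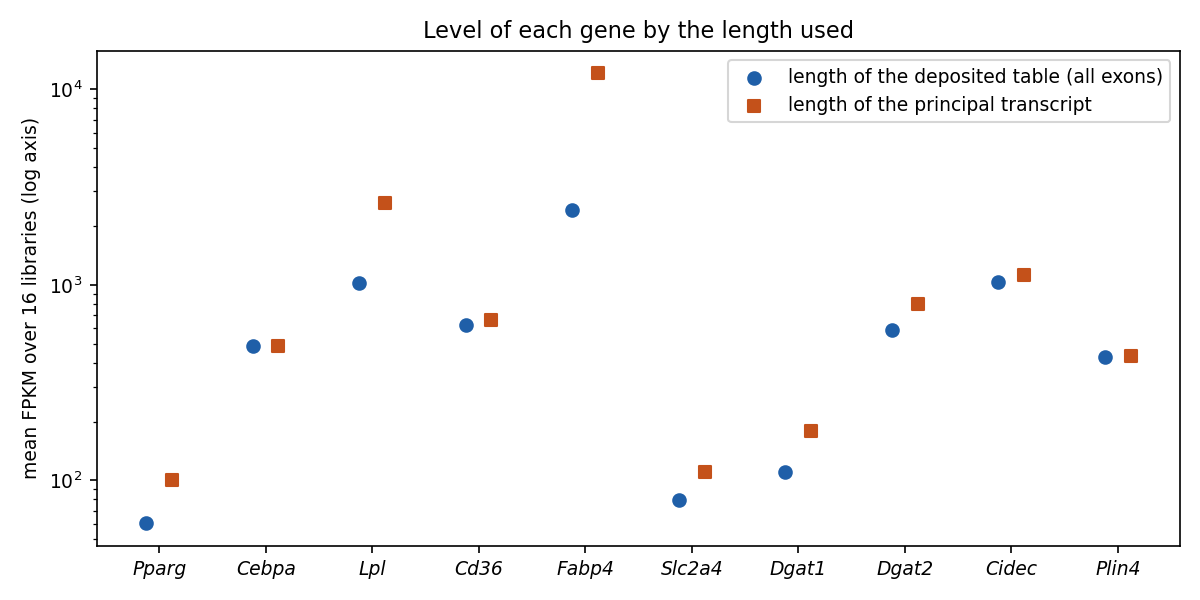
Mean FPKM over 16 libraries (log axis) of each gene, with the length of the deposited table (circles) and with that of the principal transcript (squares). Fabp4 moved most, from 2409 to 12069 FPKM, and Lpl moved from 1025 to 2611.

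In Has2_TG against Has2_WT, which asks how a hyaluronan synthase made in adipocytes affects gene expression, 1 of the 10 genes differed at the study's threshold of an unadjusted p under 0.05, and it was lower. This was Slc2a4, which encodes the insulin-responsive glucose transporter GLUT4 (protein-coding, GRCm38 chr11:69942539-69948188, minus strand). The median log2 fold change of the 10 genes was -0.09, with 4 above 0 and 6 below, and that of all 12606 genes tested was -0.03. This split turned with the setting: the median was 0.30 with 7 above 0 with the progenitor level as a covariate, and 0.10 with 6 above 0 without Has2_WT3. It was -0.32 with 1 above 0 with the B cell level as a covariate, and -0.34 with 1 above 0 without Has2_WT1 and Has2_WT2. Of all 12606 genes tested, 3.75% passed the threshold as lower and 6.25% as higher in the main fit. By limma with Benjamini-Hochberg adjustment, 0 of the 10 genes and 0.103% of all genes passed. The 2 groups overlapped for all 10 genes, while 6.19% of all genes did not overlap.

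Slc2a4 had 71.4, 92.1, 156 and 103 FPKM in Has2_WT1 to Has2_WT4 and 78.3, 70.3, 63.4 and 65.9 FPKM in Has2_TG1 to Has2_TG4. 3 of the 4 transgenic libraries were below the lowest control and the fourth, Has2_TG1, was above Has2_WT1 only. The log2 fold change was -0.55 (SE 0.22, 95% interval -1.05 to -0.05), a ratio of 0.684, and passed unadjusted but not adjusted (adjusted p = 0.446 by limma). The adjusted p was at least 0.122 in every alternative. An exact permutation test of the 8 libraries, two-sided, gave p = 0.0571, where 0.0286 is the smallest p that 4 against 4 can give. Without Has2_WT3, the library with the highest value, the log2 fold change was -0.34 (SE 0.17) and no longer passed. It did not pass either without Has2_WT4 (-0.54), Has2_TG2 (-0.56), Has2_TG3 (-0.51) or Has2_TG4 (-0.52). The mean of Slc2a4 was 69.5 ± 6.57 FPKM in Has2_TG and 106 ± 36.04 in Has2_WT (SD, n = 4), so the controls varied far more than the transgenic libraries.

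Other cell types moved with the same groups. Of 9 progenitor markers tested, 6 were higher in Has2_TG (Dpp4, Ly6a, Cd34, Pi16, Dcn and Pdgfra), all 6 without overlap. F3 (log2 fold change -0.43), Icam1 (-0.46) and Pdgfrb (0.12) did not pass. The summed level of the list was 540 to 769 FPKM in Has2_TG and 196 to 385 FPKM in Has2_WT. The progenitor level used as a covariate was the mean over all 9. Dlk1 was the only marker of the list at 0 in any library, in Has2_TG3 and Has2_TG4. Of 8 macrophage markers 5 were higher in Has2_TG, with summed levels of 441 to 508 against 195 to 398 FPKM. Of 9 B cell markers 3 were lower, with sums of 1.77 to 3.22 against 2.24 to 329 FPKM, and 7 of the 9 were at 0 in at least 1 library. With the progenitor level as a covariate, Slc2a4 had a log2 difference of 0.02 (SE 0.39), and with the B cell level -0.84 (SE 0.21). The progenitor level did not overlap between Has2_TG and Has2_WT, so the 2 cannot be told apart in the Slc2a4 value. Of 9 T cell markers 2 were lower (sums of 2.55 to 8.22 against 1.33 to 177 FPKM). Of 8 endothelial markers 1 was higher, and 0 of 11 skeletal muscle markers passed. Of 4 lymph node stroma markers tested 1 was higher, Fcrls (log2 fold change 1.11), without overlap. Cxcl13 (0.21), Glycam1 (-3.39) and Cr2 (-2.8) did not pass. The median of that list was -1.3, so the call was of Fcrls and not of the list. Without Has2_WT1 and Has2_WT2, both rich in B cell genes, the log2 fold changes were -0.87 for Slc2a4, -0.96 for Dgat2 and -0.41 for Plin4, and all 3 then passed the unadjusted threshold. That left 2 controls, and 0 passed adjustment.

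The transcription factors did not differ beyond the spread in Has2_TG. Pparg, the master regulator of fat cell formation, had 39.2, 87.7, 76.1 and 51.5 FPKM in Has2_WT and 97.5, 51.7, 44.2 and 61.5 FPKM in Has2_TG, with group means of 63.6 ± 22.2 and 63.7 ± 23.6 (SD, n = 4). Its log2 fold change was 0.01 (95% interval -0.68 to 0.69). Cebpa, which keeps mature adipocytes insulin-responsive, had 388, 534, 759.6 and 515 FPKM in Has2_WT and 505, 546, 512 and 443 FPKM in Has2_TG. All 4 transgenic values lay within the control range, with a log2 fold change of -0.09 (95% interval -0.58 to 0.40).

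Of the uptake and trafficking genes, Lpl had the highest log2 fold change of the 10 genes. Lpl had 1089.7, 742, 896 and 1265 FPKM in Has2_WT and 1436, 898, 1713 and 1258 FPKM in Has2_TG. Has2_TG1 and Has2_TG3 were above every control and the other two were within the control range, and the log2 fold change of 0.40 (SE 0.27, 95% interval -0.20 to 1.00) did not pass. Cd36, a fatty acid translocase, had 543, 608, 719 and 834 FPKM in Has2_WT and 689, 591, 561 and 583 FPKM in Has2_TG, all 4 within the control range (log2 fold change -0.14, 95% interval -0.57 to 0.29). Fabp4 had 1382, 2315, 2807 and 2532 FPKM in Has2_WT and 2386, 3109, 1426 and 2306 FPKM in Has2_TG. Only Has2_TG2 lay outside the control range, above it, with a log2 fold change of 0.03 (95% interval -0.71 to 0.76).

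Of the esterification and droplet genes none passed in Has2_TG. Dgat2 (GRCm38 chr7:99153658-99182719, minus strand), the DGAT enzyme tied to newly made fatty acids, had 494, 647, 1216 and 954 FPKM in Has2_WT and 497, 459.8, 645 and 644 FPKM in Has2_TG. 3 of the 4 controls were above the highest transgenic library, and the log2 fold change was -0.49 (SE 0.29, 95% interval -1.14 to 0.16). Without Has2_WT1 it was -0.71 (SE 0.25) and passed unadjusted. Dgat1 had 71.2, 108, 201 and 90.4 FPKM in Has2_WT and 93.8, 142, 87.3 and 95.1 FPKM in Has2_TG, with a log2 fold change of -0.08 (95% interval -0.76 to 0.60). Cidec, which fuses lipid droplets in white adipocytes, had 548, 1134, 1322 and 1074 FPKM in Has2_WT and 1134, 1235, 769.7 and 1135 FPKM in Has2_TG (log2 fold change 0.12, 95% interval -0.56 to 0.80). Both genes had every transgenic value inside the control range. Plin4, a droplet coat protein of adipocytes, had 276, 616, 592 and 551 FPKM in Has2_WT and 427, 427, 426 and 444 FPKM in Has2_TG. Its transgenic values lay within 1.04-fold of one another, 3 of 4 controls were above all of them, and the log2 fold change was -0.17 (95% interval -0.75 to 0.41), or -0.44 without Has2_WT1, where it passed unadjusted.

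In PH20_TG against PH20_WT, which asks what digestion of hyaluronan does, 0 of the 10 genes passed the unadjusted threshold and 0 passed the adjusted one by limma, although all 10 had a higher mean log2 level in PH20_TG. The log2 fold changes ran from 0.10 for Lpl to 0.54 for Dgat2, with a median of 0.39 against 0.01 for all 12532 genes tested. Of all genes 3.2% were called higher and 3.39% lower, 0% passed adjustment, and 4.54% did not overlap between the groups, whereas all 10 genes did. The 10 genes vary together over libraries, so they are not independent of one another, and 9 of 10 were above 0 with quantile normalization or scaling to the adipocyte reference genes. Without the library labelled PH20_TG1, which had 0 reads of Spam1, 3 genes passed the unadjusted threshold: Dgat1 at 0.59 (SE 0.20), Dgat2 at 0.81 (SE 0.30) and Cidec at 0.73 (SE 0.31), none of them adjusted, and the median was 0.58. Without PH20_WT1 and PH20_WT3, rich in B cell genes, 0 passed and the median was 0.15, with 7 of 10 above 0, and without these 2 and PH20_TG1 together 0 passed and the median was 0.35.

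Markers of other tissues moved with these groups too. Of 11 skeletal muscle markers tested, 10 were lower in PH20_TG, and the summed level of the list was 269 to 1128 FPKM in PH20_WT and 11.2 to 319 FPKM in PH20_TG. Tnnc2 was at 0 in all 16 libraries, and Actn3, Myh1, Ckm, Myh4 and Pvalb were at 0 in 1 PH20_TG library each. Of 9 B cell markers 5 were lower, with sums of 3.93 to 335 against 2.23 to 3.69 FPKM. With the B cell level as a covariate the median log2 fold change of the 10 genes was 0.05, with 5 above 0, and with the muscle level it was 0.33. Of 9 T cell markers 4 were lower (sums of 7.08 to 15.1 against 10.4 to 335 FPKM), of 8 endothelial markers 1 was higher, and 0 of 5 lymph node stroma and 0 of 8 macrophage markers passed. None of 6 epithelial markers reached the read minimum in either study, and their sum was at most 10.9 FPKM. Of 9 progenitor markers 2 were called higher and 0 lower, but the other 7 lay below 0, with a list median log2 fold change of -0.28. The list varied within PH20_TG, where PH20_TG2 and PH20_TG3 had mean log2 levels of 3.29 and 2.97, and PH20_TG1 and PH20_TG4 had 5.18.

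The 4 PH20_TG libraries fell into pairs for most of the 10 genes. Pparg had 26.4, 54.4, 45.7 and 59.3 FPKM in PH20_WT1 to PH20_WT4, 38.5 in the library labelled PH20_TG1, and 85.8, 107 and 40.8 FPKM in PH20_TG2 to PH20_TG4. Cebpa had 310.3, 508, 387 and 356 FPKM in PH20_WT and, in the same order of libraries, 356, 633, 619.7 and 409.7 FPKM in PH20_TG. For both factors PH20_TG2 and PH20_TG3 exceeded every control and the other 2 lay within the control range. The log2 fold changes were 0.47 for Pparg (95% interval -0.41 to 1.35) and 0.35 for Cebpa (95% interval -0.23 to 0.92).

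The same pair of libraries was highest in PH20_TG for uptake. Lpl had 654, 1008, 748 and 1003 FPKM in PH20_WT and 739, 1149, 1092 and 713 FPKM in PH20_TG. Cd36 had 343, 741, 564 and 604 FPKM in PH20_WT and 585, 842, 720.4 and 473 FPKM in PH20_TG, and Fabp4 had 1499.6, 2872, 2244 and 2621 FPKM against 2054, 3036, 3765 and 2188 FPKM. PH20_WT1 was the lowest of the 8 libraries for all 3. The log2 fold changes were 0.10 for Lpl, 0.24 for Cd36 and 0.25 for Fabp4, with intervals from -0.51 at the lowest bound to 1.02 at the highest. Slc2a4 had 36.6, 81.4, 60.5 and 73.6 FPKM in PH20_WT and 50.2, 92.2, 114 and 69.1 FPKM in PH20_TG, with a log2 fold change of 0.36 (95% interval -0.35 to 1.08).

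Dgat1 and Dgat2 had the most libraries above their controls. Dgat1 had 67.9, 101, 91.0 and 114 FPKM in PH20_WT and 83.5, 134, 159 and 124 FPKM in PH20_TG. Dgat2 had 229, 496, 363 and 453 FPKM in PH20_WT and 306, 728, 709 and 527 FPKM in PH20_TG. For each enzyme 3 of the 4 transgenic libraries exceeded every control, the exception being the library labelled PH20_TG1. The log2 fold changes were 0.41 for Dgat1 (SE 0.23) and 0.54 for Dgat2 (SE 0.34), and exact permutation tests gave p = 0.171 and p = 0.257. Cidec had 565, 1108, 843 and 842 FPKM in PH20_WT and 686, 1708, 1454 and 991 FPKM in PH20_TG. Plin4 had 199, 436, 317 and 307 FPKM in PH20_WT and 270.0, 779.6, 451 and 358 FPKM in PH20_TG. In both, PH20_TG2 and PH20_TG3 exceeded every control, with log2 fold changes of 0.48 (95% interval -0.29 to 1.25) and 0.50 (95% interval -0.30 to 1.30).

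**Figure D3:**
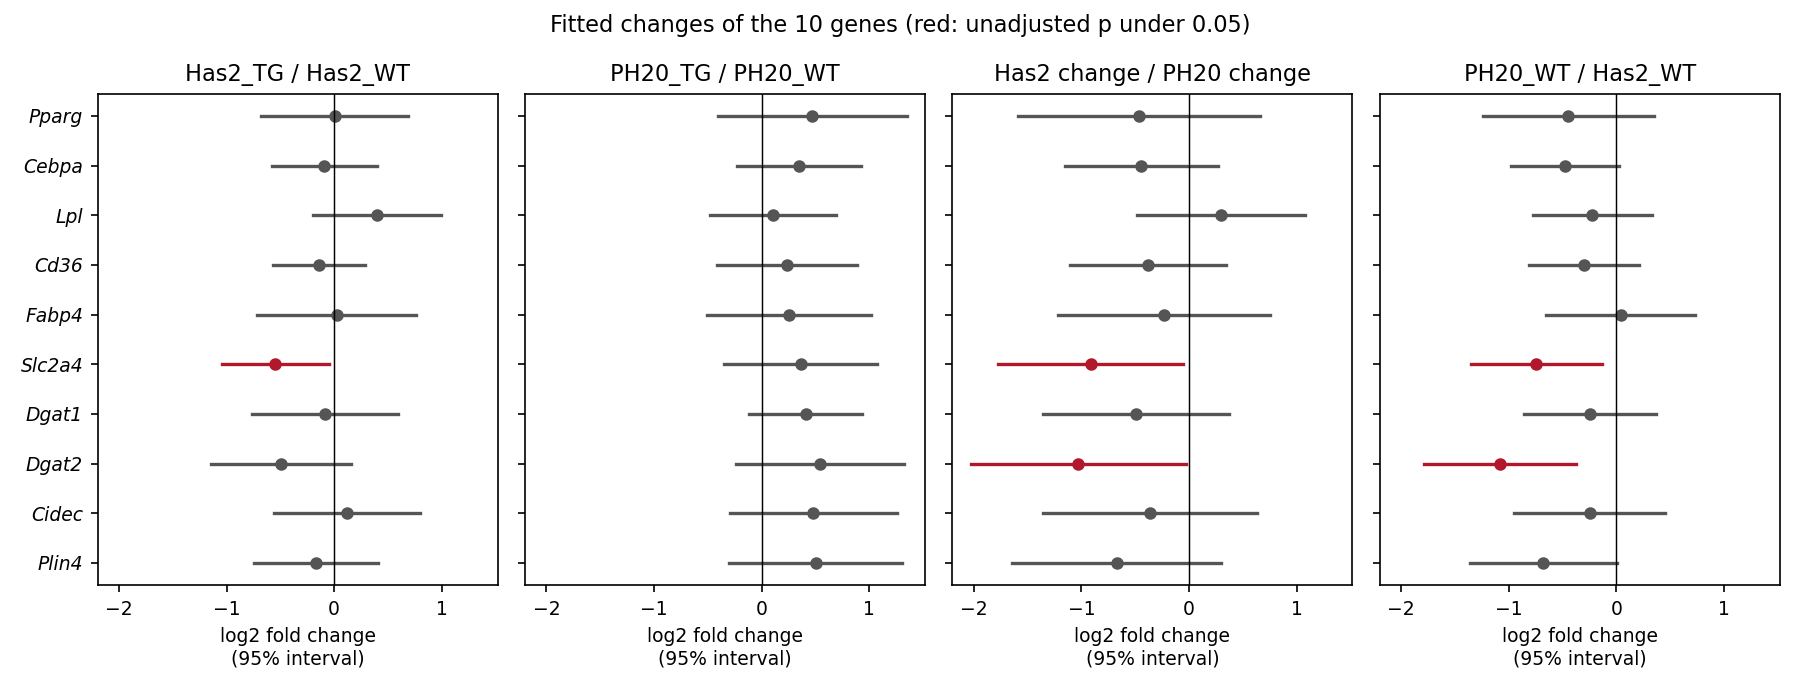
Log2 fold changes (points) with 95% intervals (lines) of the 10 genes by limma in 4 comparisons: each transgenic group against its controls, the first change minus the second, and the control groups against each other. Red marks an unadjusted p under 0.05: Slc2a4 in the first panel, Slc2a4 and Dgat2 in the third and the fourth, and no gene in the second.

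The change in Has2_TG minus that in PH20_TG was tested in 1 model over the 16 libraries. 9 of the 10 differences were below 0, with a median of -0.45 on the log2 scale against -0.02 for all 12593 genes, and 2 genes passed the unadjusted threshold. Slc2a4 differed by -0.91 (SE 0.40, 95% interval -1.77 to -0.05) and Dgat2 by -1.03 (SE 0.47, 95% interval -2.03 to -0.03). By limma, the adjusted p = 0.621 for Slc2a4 and adjusted p = 0.638 for Dgat2. Over all genes 3.68% were called lower and 4.03% higher, and 0% passed adjustment. For the other 8 genes the intervals included 0, from -0.67 for Plin4 to 0.30 for Lpl, the 1 gene above 0. Slc2a4 and Dgat2 both lost the threshold without Has2_WT3 (-0.71 and -0.82), Has2_WT4 (-0.91 and -0.93), Has2_TG2 (-0.92 and -0.94), PH20_WT1 (-0.67 and -0.80), PH20_WT3 (-0.91 and -1.02), PH20_TG2 (-0.83 and -0.88) or PH20_TG3 (-0.73 and -0.90). Slc2a4 also lost it without Has2_TG3 or Has2_TG4, and Dgat2 without Has2_TG1 or PH20_TG4. With the progenitor level as a covariate the direction of the set turned, to a median of 0.07 with 7 of 10 above 0, and Slc2a4 and Dgat2 were -0.26 (SE 0.31) and -0.48 (SE 0.45), and neither passed.

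These differences involve control groups that themselves differed. Both control groups carried Apn-rtTA alone, but line, litter and study cannot be told apart between them. All 11 skeletal muscle markers tested lay higher in PH20_WT, 10 of them without overlap. Of these, 3 passed the unadjusted threshold and 0 the adjusted one. The summed muscle level was 269 to 1128 FPKM in PH20_WT and 26.1 to 126 FPKM in Has2_WT. With the muscle level as a covariate the median log2 difference of the 10 genes was -0.49, with 0 above 0. PH20_WT was below Has2_WT for 9 of the 10 genes (all but Fabp4), with a median log2 difference of -0.37 against 0.01 for all genes. Dgat2 was lower in PH20_WT by 1.08 on the log2 scale (95% interval -1.78 to -0.37), at a mean of 385 ± 118 against 828 ± 322 FPKM (SD, n = 4), and Slc2a4 was lower by 0.75 (95% interval -1.36 to -0.14), at 63.0 ± 19.6 against 106 ± 36.04 FPKM. By limma, the adjusted p = 0.362 for Dgat2 and adjusted p = 0.421 for Slc2a4. Among all genes 5.61% were called lower and 4.66% higher, 0% passed adjustment and 6.34% did not overlap, and the 2 control groups overlapped for all 10 genes. Dgat2 had 562 ± 97.1 FPKM in Has2_TG and 567 ± 197 in PH20_TG, so the transgenic means were closer to each other than were the control means. Slc2a4 lost the threshold without Has2_WT3 (-0.54), without PH20_WT1 (-0.51) or with the 4 controls rich in B cell genes left out together (-0.71), and Dgat2 kept it in every setting tried.

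PH20_WT had the lowest group mean for 9 of the 10 genes, and for Fabp4 the lowest was Has2_WT. Has2_WT had the highest mean for Cebpa, Cd36, Slc2a4, Dgat2 and Plin4, PH20_TG for Pparg, Fabp4, Dgat1 and Cidec, and Has2_TG for Lpl. The highest group mean was 1.20 times the lowest for Cd36 and 2.15 times for Dgat2, the extremes of the 10. In each order all neighbouring groups overlapped, and so did the first and the last.

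Single libraries set much of this spread. PH20_WT1 was the lowest of the 16 libraries for 8 genes and among the lowest 4 for all 10, and Has2_WT1 was the lowest for the other two, Fabp4 and Cidec. The library labelled PH20_TG1 was among the lowest 4 for 9 genes. Has2_WT3 was the highest library for 4 genes (Cebpa, Slc2a4, Dgat1 and Dgat2), PH20_TG2 was among the highest 4 for 9 and PH20_TG3 for 8. The mean log2 level over the 10 genes was 7.72 in PH20_WT1 and 9.13 in Has2_WT3, its lowest and highest values. PH20_WT1 and Has2_WT1 were also the 2 libraries with the highest B cell level, while the library labelled PH20_TG1 was not rich in B cell genes and had the highest macrophage sum of the 16. The part of these cells in the values was not tested.

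**Figure D4:**
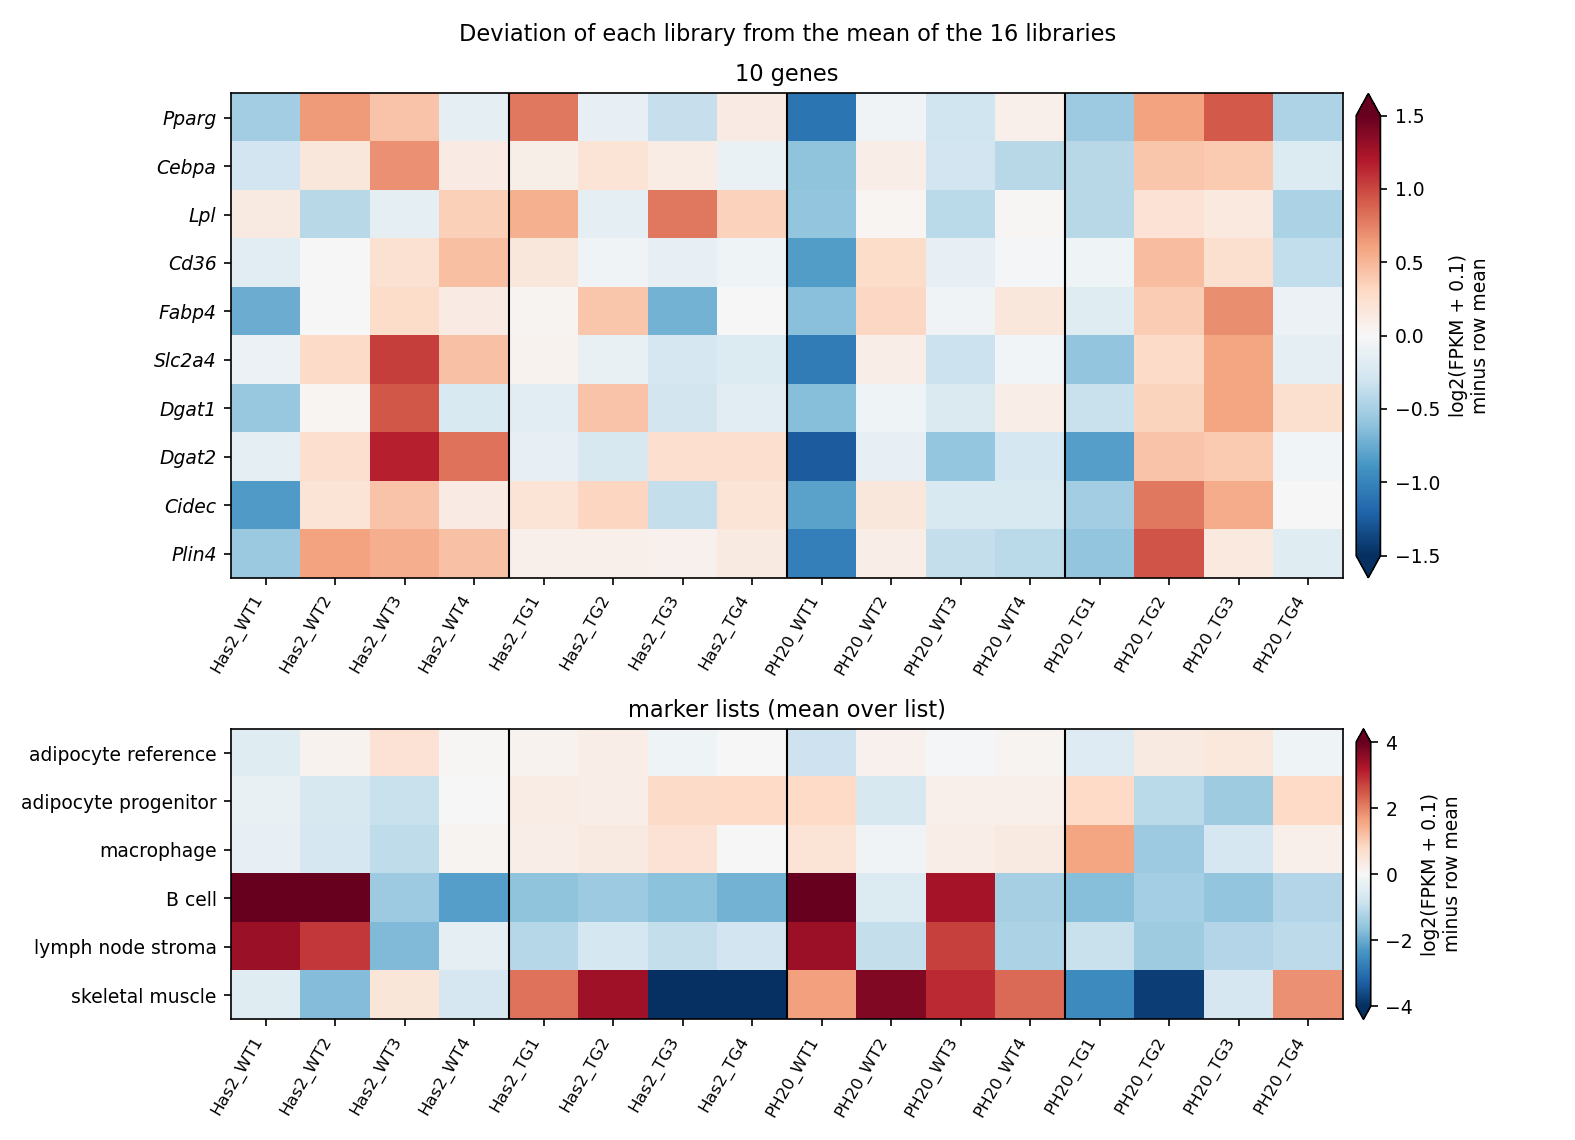
Deviation of each of 16 libraries from the row mean, as log2(FPKM + 0.1), for the 10 genes (top) and for mean levels of 6 marker lists (bottom). Red is above and blue below the row mean, and colours stop at 1.5 (top) and 4 (bottom). PH20_WT1 was low for all 10 genes, and the 4 control libraries rich in B cell genes were also rich in lymph node stroma genes.

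9 of the genes moved as a block over the libraries and Lpl only loosely with them. As a description over 16 libraries that share depth and tissue make-up, Pearson's r of each gene with the mean of the other 9 was 0.912 for Cebpa, 0.891 for Slc2a4, 0.888 for Plin4, 0.888 for Cidec, 0.828 for Cd36, 0.826 for Dgat2 and 0.826 for Pparg. It was 0.731 for Dgat1, 0.698 for Fabp4 and 0.346 for Lpl, the lowest. Without the 2 libraries farthest from the median of that mean, Cebpa had an r of 0.879 and Lpl 0.246. The 36 pairs without Lpl had r between 0.424 and 0.906 (median 0.75), and the 9 pairs with Lpl between -0.028 and 0.509 (median 0.375). Has2_TG3 showed the split most plainly, with the highest Lpl of all 16 libraries at 1713 FPKM and the second lowest Fabp4 at 1426 FPKM. Genes outside the 10 with a high r to their mean included Apmap (0.968), Nfs1 (0.967), Dolk (0.959) and Ppp2r1b (0.959), among 12593 genes over the 16 libraries.

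Ratios of 2 of the genes within a library do not depend on how the library was scaled. Of 45 such ratios per study, 2 did not overlap between Has2_TG and Has2_WT, where 6.19% of all single genes did not. Each of the 2 has Slc2a4 as its divisor, so they are not separate observations. The ratio of Cebpa to Slc2a4 was 7.25 ± 0.798 in Has2_TG and 5.28 ± 0.422 in Has2_WT, and that of Cd36 to Slc2a4 was 8.73 ± 0.214 and 6.73 ± 1.55 (SD, n = 4). Both had an exact permutation p of 0.0286, the smallest possible, and an adjusted p of 0.367 over the 45 ratios, so neither passed. In the PH20 study no ratio was without overlap, and the smallest exact permutation p was 0.0857.

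Related genes were read from 5 lists of the same pathways, none of them holding any of the 10 genes. In Has2_TG the list of triglyceride synthesis had 3 of 14 genes lower and 0 higher, with a median log2 fold change of -0.16. Gpd1, which makes glycerol 3-phosphate for the triglyceride backbone, was lower by 0.84 on the log2 scale (SE 0.26) without overlap, at 404 to 572 FPKM in Has2_TG and 649 to 1399.8 in Has2_WT. Gpam, which adds the first fatty acid, was lower by 0.79 (SE 0.24), and Lpin1, which removes phosphate to give diacylglycerol, by 0.69 (SE 0.22). These 3 enzymes act before DGAT in the same route, in which Dgat2 had its own value of -0.49. In the list of insulin-stimulated glucose uptake (12 genes, median -0.10, 0 higher), Slc2a1, the basal glucose transporter, was lower by 0.91 (SE 0.32). Of 11 droplet protein genes 1 was lower, Plin5, which couples droplets to mitochondria, by 1.14 (SE 0.48) without overlap (median of the list -0.12). Of 13 adipogenic transcription factors 1 was higher, Cebpd, an early factor of differentiation, at 0.96 (SE 0.21) without overlap, with a list median of -0.13. None of 12 uptake genes passed (median -0.06). By limma the adjusted p of these 6 genes ran from 0.105 to 0.462, so 0 passed. The shares of all genes called, 3.75% lower and 6.25% higher, apply here too.

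In PH20_TG 3.2% of all genes were called higher and 3.39% lower. The same 5 lists had median log2 fold changes from 0.01 to 0.28, against 0.01 for all genes. They were read with all libraries and no covariate. Of 13 transcription factors 1 was lower, Ppargc1b, a coactivator of mitochondrial genes, by 0.69 (SE 0.21) without overlap, and 0 were higher, with a list median of 0.16. Of 12 uptake genes 1 was higher, Fabp5, the second fatty acid binding protein of adipocytes, at 0.71 (SE 0.27), and 11 of the 12 lay above 0 (median 0.28). Of 14 genes of triglyceride synthesis 1 was higher, Lpin3 at 0.70 (SE 0.24) without overlap, and 13 lay above 0 (median 0.28). Of 11 droplet genes 2 were higher, Hilpda, which restrains lipolysis, at 0.68 (SE 0.23) and Plin2, a droplet coat of many cells, at 0.65 (SE 0.23), with a median of 0.28. Of 12 genes of glucose uptake 1 was higher, Irs2, a docking protein of the insulin receptor, at 0.82 (SE 0.24) without overlap. The median of that list was 0.01, with 6 above 0 and 6 below. The smallest adjusted p of these genes was 0.664 by limma.

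**Figure D5:**
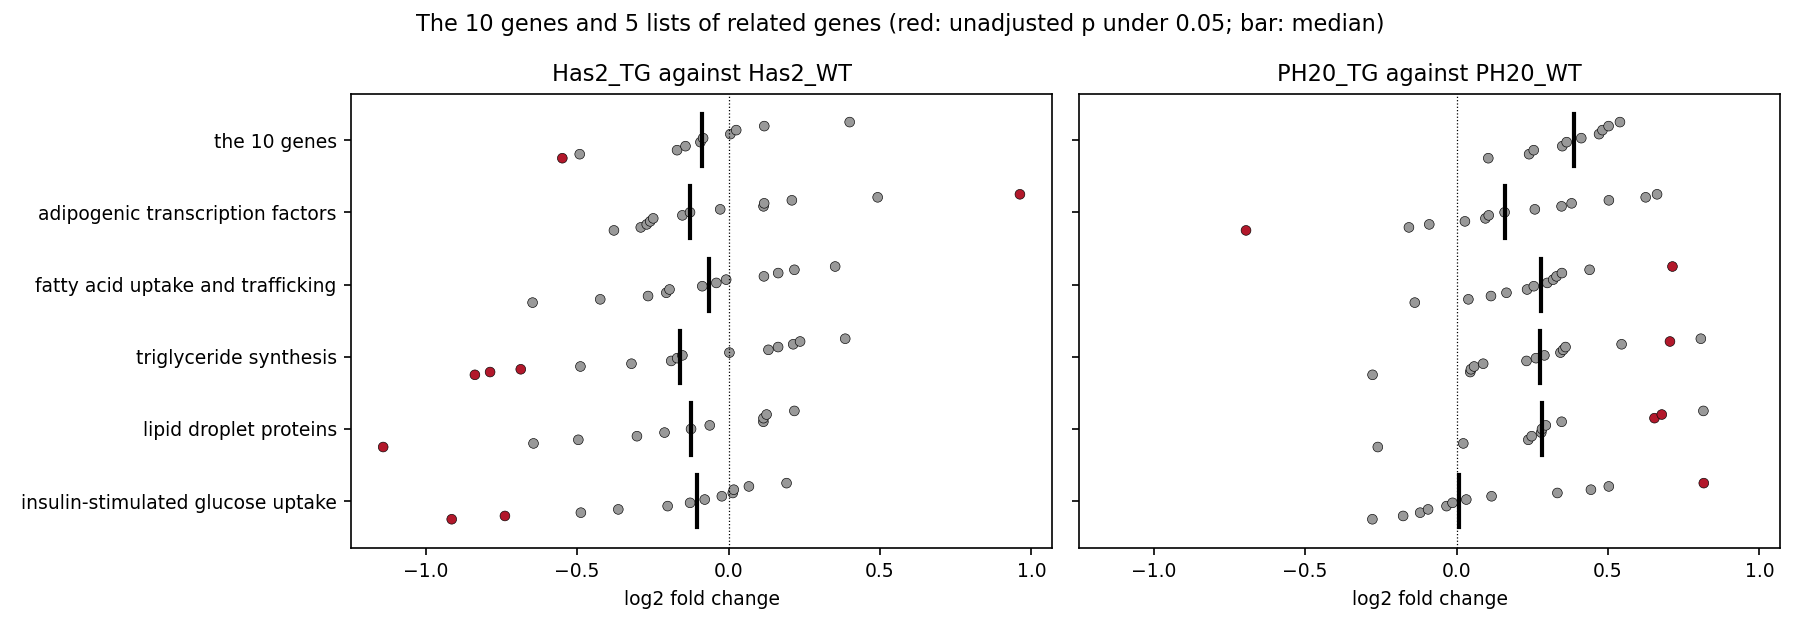
Log2 fold changes of single genes (points) in the 10 genes and 5 lists of related genes, for Has2_TG against Has2_WT (left) and PH20_TG against PH20_WT (right). Black bars are medians and red marks an unadjusted p under 0.05. The median of the 10 genes was -0.09 on the left and 0.39 on the right.

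Brown and beige adipocyte markers in the same libraries give the other adipocyte program. The paper measured such genes after cold exposure, where Ucp1 was higher in Apn-Has2 mice and lower in Apn-PH20 mice. It states no cold exposure for the mice sequenced here, so those values and the ones below are not compared. In Has2_TG, where 3.75% of all genes were called lower, 2 of 8 were lower at the unadjusted threshold and 0 were higher. Ucp1, which uncouples respiration for heat, was lower by 2.16 on the log2 scale (SE 0.90). Prdm16, a factor that sustains beige identity, was lower by 0.66 (SE 0.29). The groups overlapped for each, with Ucp1 at 7.31 to 206 FPKM in Has2_TG and 74.4 to 275 FPKM in Has2_WT. Dio2 (0.55) and Ppargc1a (0.24) lay above 0 and did not pass. In PH20_TG, where 3.2% of all genes were called higher, 1 of 6 tested was higher, Prdm16 at 0.74 (SE 0.28). The adipocyte reference genes (Adipoq, Plin1, Lipe, Pnpla2, Adig, Acsl1 and Cfd) had 0 of 7 called in either study, with medians of 0.03 in Has2_TG and 0.15 in PH20_TG. The smallest adjusted p of these genes was 0.459 by limma.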

How the data were processed

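Inguinal white adipose tissue was sequenced in 16 libraries, 4 per group, made with an Illumina TruSeq RNA kit. The authors aligned reads with STAR 2.7.9a to GRCm38, with FastQC 0.11.9 and MultiQC 1.12 for quality and DESeq2 for their own tests, and deposited FPKM per gene. FPKM times gene length gave whole reads for 100% of values (within 0.01 reads), from which depth was read. FPKM divides by all exons of a gene, so only levels between genes depend on the annotated length.

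Groups were taken from the sample titles. Because the deposited unit is FPKM, limma 3.58.1 (R 4.3.3), with a variance trend and two-sided tests, was run on log2(FPKM + 0.1) in place of a count test, keeping genes whose mean reached 50 reads (12532 to 12606 genes). A fold change on this scale understates changes of low genes. A gene was called at an unadjusted p under 0.05, the study's threshold, with Benjamini-Hochberg values over all genes beside it. Single genes and ratios were tested by exact permutation (scipy 1.17.1). The labels number the replicates without stating separate animals, so p-values measure the spread between these libraries. No 2 libraries agreed within sampling noise. The fit was tested on simulated data.

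The 10 genes and all lists were chosen with earlier results of these data known. Named genes are the 10, from each of 5 pathway lists and each study up to 3 called genes with the smallest p, the 5 genes most like the mean of the 10, and defining markers of lists that moved with them. Of the genes this rule names, 2 are not reported here. Marker lists were epithelial, macrophage, endothelial, progenitor, B cell, lymph node stroma, muscle, T cell, brown and beige adipocyte, and adipocyte reference. The labels do not state that replicate numbers pair the libraries, so the main fits used no pairing. Alternatives covered the pseudocount, filter, scaling, weights, covariates, the replicate block and libraries left out. A gene name of the lists differed in the table for Trarg1 (Tusc5) and Gyk (Gk).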

Additional observations from a re-analysis of the deposited data

Results flagged for a closer look

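In 40 sets of 4 libraries (10 genes in 4 groups), 2 held a library far from the other 3, where chance alone gives about 1 in 20. Dgat1 in Has2_TG2 was at 142 FPKM against 87.3 to 95.1 FPKM in the other 3. Plin4 in Has2_TG4 was at 444 FPKM, although the other 3 lay between 426 and 427 FPKM and the whole group within 1.04-fold. The change in Has2_TG minus that in PH20_TG stood out for Slc2a4 (-0.91 on the log2 scale, SE 0.40) and Dgat2 (-1.03, SE 0.47) in limma's test of the difference at the unadjusted threshold, and neither passed adjustment.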

How the results depend on the processing

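Of 1060 alternative values of the 10 genes in 4 comparisons, 997 stayed on their side of the threshold, 28 passed it, 34 lost it and 1 value called in the report reversed. The sign differed from that of the report in 57 of the 1060, and apart from that 1 these belong to values that were not called. The reversed value was that of Slc2a4 in Has2_TG, 0.0241 with the progenitor level as a covariate. In every alternative 0 of the 10 genes passed adjustment. In Has2_TG the count called, 1, was 0 without a variance trend, with the progenitor covariate, with all 16 libraries in 1 fit and with the replicate block, 2 with the B cell or lymph node stroma covariate, 3 without the control libraries rich in B cell genes, and 0 to 3 with 1 library left out. In PH20_TG the count, 0, was 4 with the replicate block (Cidec, Dgat1, Dgat2 and Plin4) and 0 to 3 with 1 library left out. Same-numbered libraries correlated at -0.003, 0.130, -0.179 and 0.015 in the Has2 study and 0.345, 0.418, -0.028 and -0.036 in the PH20 study. Has2_WT2, PH20_WT1 and PH20_WT2 correlated best with their own number, and the other controls did not. The labels state no pairing, and these correlations cannot decide whether there was one. For the difference between the studies the count, 2, was 1 without a filter, with the muscle covariate or without the controls rich in B cell genes, 0 with the progenitor covariate, and 0 to 3 with 1 library left out. Between the control groups the count, 2, was 4 with quantile normalization or with the B cell or lymph node stroma covariate, 1 without the controls rich in B cell genes, and 1 to 4 with 1 library left out. The causes were not tested. Scaling to the adipocyte reference list moved the median of all genes to -0.17 in PH20_TG, 0.16 for the difference and 0.23 between controls, where the medians of the 10 genes on the same scale were 0.21, -0.27 and -0.15. The options without the controls rich in B cell genes, without them and PH20_TG1, and by principal transcript were chosen after seeing the data. With at least 1716 reads per gene and library, the number of libraries limits the precision more than depth does.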
